A study of Mus musculus with 2 samples.

Results

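Heat shock proteins, DnaJ proteins and the CCT chaperonin were described in a pair of sorted mouse CD4+ T cell populations. Members were the protein-coding genes of the deposited table whose symbol begins with Hspa, Hspb, Hspd, Hspe, Hsph, Hsp90, Dnaja, Dnajb, Dnajc or Cct followed by a digit, or is Tcp1, with pseudogene symbols left out. The rule gave 83 of the 41592 genes listed, and it used no expression value. Of these, 82 are protein-coding in the GENCODE M21 annotation. The 83rd, Cct6a, has another gene type there but is protein-coding in RefSeq, and it was kept. The prefix rule also took in Hspbp1, Hspbap1 and Hspb11, which are not small heat shock proteins by function. Hspa14 was not analysed here.

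Chaperones bind proteins that are not, or no longer, folded. HSP70 proteins hold and release such clients in cycles of ATP hydrolysis, DnaJ proteins bring the clients and start the hydrolysis, and nucleotide exchange factors end the cycle. HSP90 takes over clients that are already partly folded, among them many kinases and steroid receptors. The CCT ring, built from related subunits, folds actin, tubulin and other cytosolic proteins in its cavity, and the mitochondrial chaperonin of Hspd1 and Hspe1 does so in the mitochondrial matrix. Heat shock factor 1, encoded by Hsf1, induces a subset of these genes under stress by binding heat shock elements, arrays of the half-site GAA in alternating orientation. In T cells the demand for folding increases with activation and growth.

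The populations were YFP-positive Thy1.1-negative cells and YFP-positive Thy1.1-positive cells. Both came from spleen and lymph node CD4+ cells of C57BL/6 mice, 6 to 8 weeks old, and were sorted at a purity typically above 97%. All mice carried the Foxp3 dCNS1-Cre-R26-YFP genotype, in which Cre is driven by Foxp3 regulatory DNA without the element CNS1, and YFP from the Rosa26 locus labels every cell that has had active Cre, with its descendants. The study's stated question concerns precursors of cells that lose Foxp3, set against regulatory T (Treg) cells of thymic origin, but its design text gives the same markers to both, so the populations are named by their sample titles. How the Thy1.1 allele was introduced and how many mice were pooled are not stated in the labels. Each population had 1 library, so differences could not be checked against replicates and are given without p-values.

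Depth was 18536339 counted reads in Thy1.1-negative cells and 18600581 in Thy1.1-positive cells. Levels are FPKM, reads per kilobase of gene length and per 1e6 counted reads. Differences are in log2(FPKM + 1), Thy1.1-negative minus Thy1.1-positive, and ratios run the same way. Intervals in brackets are exact 95% counting intervals of the FPKM ratio and cover counting error only. Of 5 T cell markers all were abundant, with Cd3e at 292 FPKM in Thy1.1-negative and 248 FPKM in Thy1.1-positive cells. All 5 were higher in Thy1.1-negative cells, with a median difference of 0.40, from 0.23 for Cd3e to 0.53 for Cd4. Of 4 Treg markers, 3 were lower in Thy1.1-negative cells and Ctla4 was slightly higher. Foxp3 stood at 158 FPKM in Thy1.1-negative and 237 FPKM in Thy1.1-positive cells. In the same order of populations, Il2ra was at 98.8 and 205 FPKM, Ikzf2 at 328 and 362 FPKM and Ctla4 at 1156 and 1105 FPKM. The B cell genes Ms4a1 and Pax5 and the myeloid genes Lyz2 and Csf1r were at or below 0.330 FPKM in both, while Itgam, another myeloid marker, was at 4.17 FPKM in Thy1.1-negative and 0.272 FPKM in Thy1.1-positive cells. The B cell markers Cd79a and Cd79b reached a mean of 1 FPKM and summed to 8.08 FPKM in Thy1.1-negative and 6.04 FPKM in Thy1.1-positive cells, and Itgam was the sole one of 5 myeloid markers to reach that mean. Of the natural killer markers, Ncr1 was listed at 0 in Thy1.1-negative cells and stood at 0.218 FPKM in Thy1.1-positive cells, Klrb1c was at 2.08 FPKM in Thy1.1-negative and 0.445 FPKM in Thy1.1-positive cells, and Eomes was at 2.22 FPKM in Thy1.1-negative and 2.996 FPKM in Thy1.1-positive cells. The part of these markers in the values below was not tested. All 16 cell cycle genes listed for comparison had higher values in Thy1.1-negative cells, with a median difference of 1.84, and 11 were past 2-fold. The part of cell division in the values below was not tested. In bulk RNA, a change in the number of cells that express a gene and a change in RNA per cell cannot be told apart.

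As deposited, chaperone transcripts were nearly level between the populations, much as protein-coding genes were. A mean of at least 1 FPKM over both libraries was reached by 67 of the 83 members, and none of them differed by 2-fold in either direction, where 1.78% of 10657 protein-coding genes were at least 2-fold higher and 0.544% at least 2-fold lower. Over all 12820 genes measured the shares were 1.93% and 1.15%. Shares this small leave few calls to be expected among 67 genes, so the absence of calls says little about chaperones in particular. At 1.5-fold on the log2(FPKM + 1) scale, Dnajc15 was the sole member that was higher, against 5.25% of protein-coding genes, and no member was lower, against 2.17%. At 1.2-fold, 10 members were higher, among them Hspa1a, which reached the mean of 1 FPKM through its Thy1.1-negative value alone, and 5 were lower. These are 14.9% and 7.46% of members, beside 19.5% and 10.6% of protein-coding genes. The other 52 members, 77.6%, lay within 1.2-fold, as did 69.8% of protein-coding genes. Above 0 were 38 members and below 0 were 29, which is 56.7% and 43.3%, beside 56.8% and 43.2% of protein-coding genes. The median difference was 0.04 over the members and 0.04 over protein-coding genes. The SD of differences between genes was 0.22 over the members and 0.35 over protein-coding genes. Members were also counted more deeply, with a median of 1038 reads in Thy1.1-negative and 1017 reads in Thy1.1-positive cells, against 646 and 610 reads per protein-coding gene in the same order of populations, and the part of depth in the narrower spread was not tested.

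**Figure D1:**
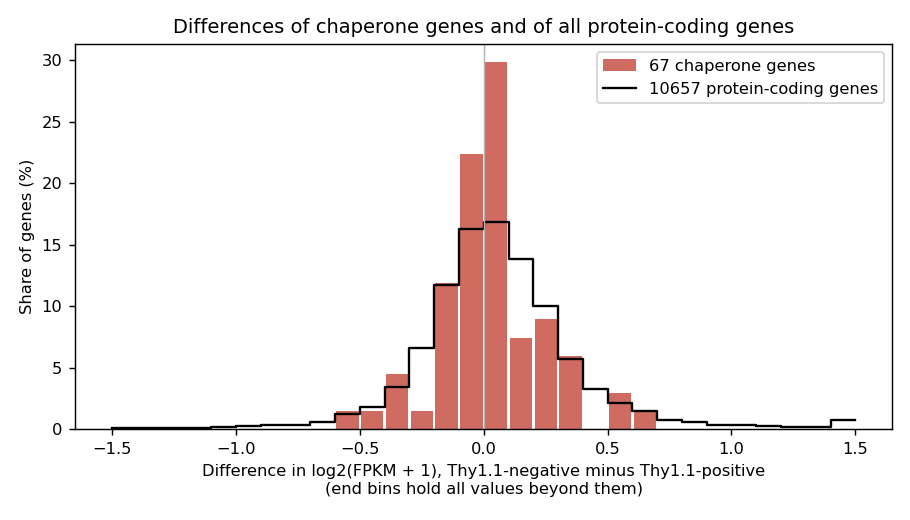
Differences in log2(FPKM + 1), Thy1.1-negative minus Thy1.1-positive, in bins of 0.1, for 67 chaperone genes (bars) and 10657 protein-coding genes (line), as a share of each set in percent. No chaperone gene lies beyond -0.54 or 0.69, whereas the line reaches the end bins.

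The choice of scale bears on many of the signs given here. Making the upper quartiles of the 2 libraries equal shifted all genes by a median of 0.23 and put the members' median at 0.28, beside 0.27 for protein-coding genes. On that scale 24 of the 29 members below 0 turned above it. In all, 62 of 67 members then lay above 0, beside 9248 of 10657 protein-coding genes. No other rescaling, pseudocount or filter turned a member from below 0 to above 0. The 5 that stayed below 0 were Dnajb4, Hspb1, Hspbp1, Dnajc12 and Dnajb2. Counted at 1.2-fold on that scale, 36 members were higher and 2 lower, 53.7% and 2.99%, beside 51.9% and 3.69% of protein-coding genes. The median protein-coding gene stood at 0.04 as deposited, and class medians are read against it.

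All members together took 1.09% of counted reads in Thy1.1-negative cells and 1.097% in Thy1.1-positive cells, a ratio of 0.997 (0.991 to 1.003). The 3 most abundant members supplied 48.0% of these chaperone reads in Thy1.1-negative and 48.8% in Thy1.1-positive cells. They were Hsp90ab1, the constitutive cytosolic HSP90, Hspa8, the constitutive cytosolic HSP70, and Hspa5, the HSP70 of the endoplasmic reticulum (ER) also called BiP. A mean of 100 FPKM or more was reached by 17 members.

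**Figure D2:**
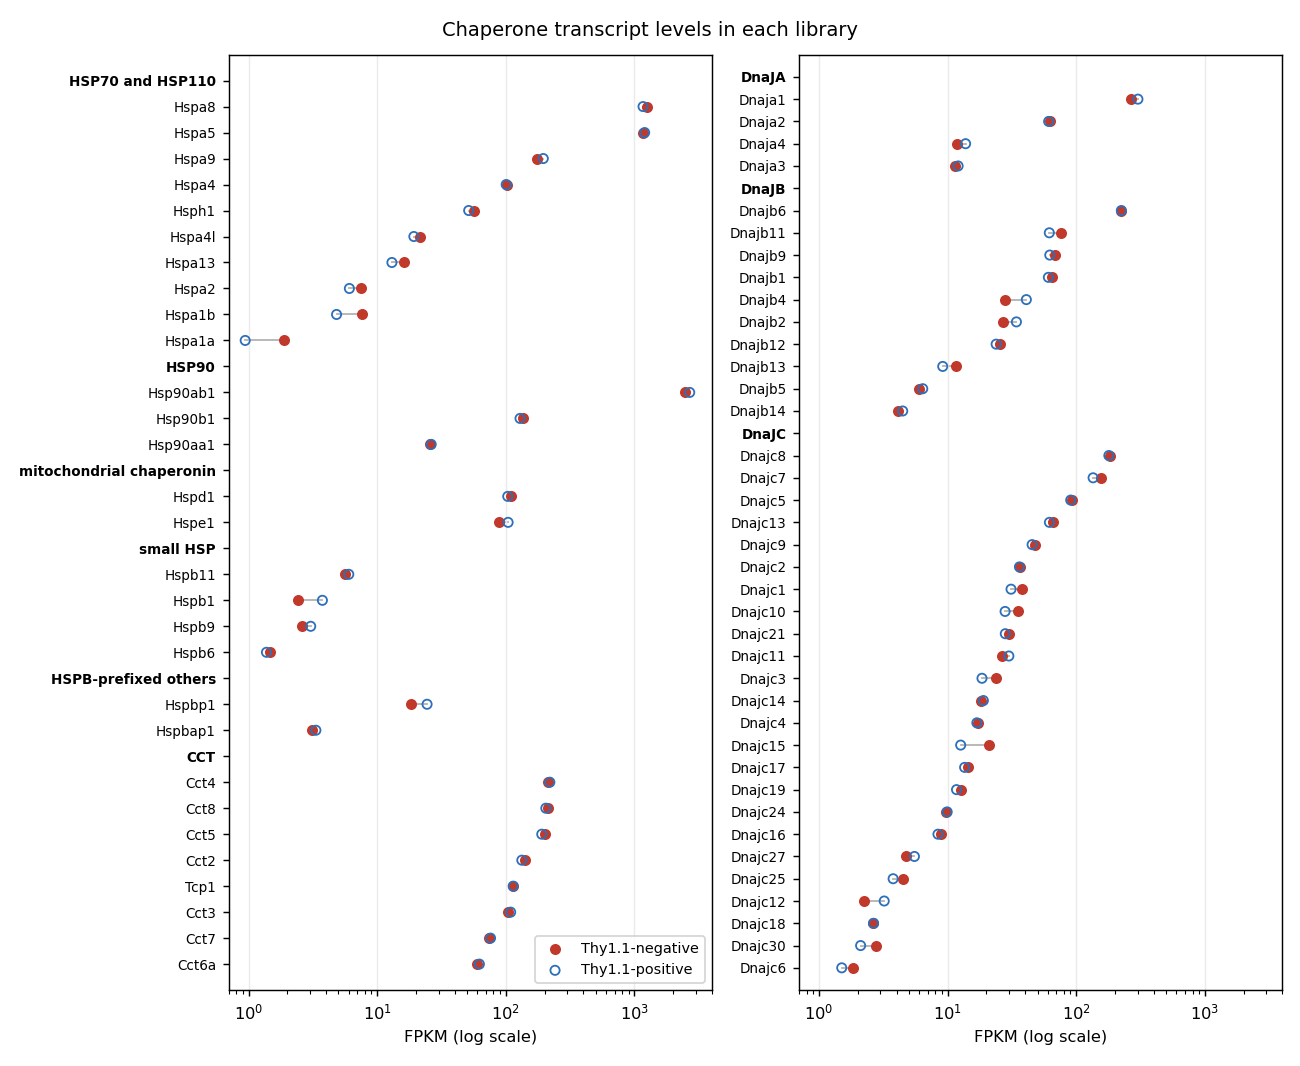
FPKM on a log axis for the 67 measured members, grouped by class, with filled circles for Thy1.1-negative and open circles for Thy1.1-positive cells. Paired circles nearly coincide for most genes; Hspa1a, Hspa1b, Hspb1, Dnajb4 and Dnajc15 are among the visibly separated pairs.

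Among HSP70 and HSP110 genes the abundant, constitutive members hardly differed. The largest differences were those of the low, stress-inducible Hspa1a and Hspa1b, and Hspa1a passed the filter through its Thy1.1-negative value alone. Hspa8 stood at 1249.9 FPKM in Thy1.1-negative cells and 1166 FPKM in Thy1.1-positive cells, a ratio of 1.07 (1.05 to 1.09), and 39.4% of its 50-base words also occur in other annotated genes. Hspa5 stood at 1164 FPKM in Thy1.1-negative and 1199.8 FPKM in Thy1.1-positive cells, a ratio of 0.970. Hspa9, the mitochondrial HSP70 mortalin, was at 174 FPKM in Thy1.1-negative and 195.5 FPKM in Thy1.1-positive cells with a ratio of 0.890 (0.854 to 0.928). For Hspa5 and Hspa9 the difference turned positive with equal upper quartiles. Hspa4, Hspa4l and Hsph1 form the HSP110 branch, whose proteins act as exchange factors for HSP70. Their levels, in that order, were 102, 21.7 and 56.1 FPKM in Thy1.1-negative cells, against 100.7, 19.3 and 51.4 FPKM in Thy1.1-positive cells. The difference of Hspa4, 0.02, turned below 0 when the median gene was centred or the 100 highest genes were left out of the sum. Over the class, 8 of 10 measured members lay above 0, Hspa1a among them, and the median difference was 0.14, beside 0.04 for protein-coding genes.

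Hspa1a and Hspa1b, the tandem genes of stress-inducible HSP70, were low in both libraries and higher in the Thy1.1-negative one. Hspa1a was at 1.87 FPKM from 103 reads in Thy1.1-negative cells, against 0.942 FPKM from 52 reads in Thy1.1-positive cells, a ratio of 1.99 (1.41 to 2.83). Hspa1b was at 7.58 FPKM in Thy1.1-negative and 4.83 FPKM in Thy1.1-positive cells, a ratio of 1.57 (1.34 to 1.85). Both differences were 0.56 on the log2(FPKM + 1) scale, which understates low genes, and with a pseudocount of 0.1 they were 0.92 and 0.64. These values cannot be assigned to either gene with certainty. The coding sequences are identical at 99.4% of aligned positions, and 66.3% of the 50-base words of Hspa1a and 62.3% of those of Hspa1b also occur in annotated transcripts of other genes, led by each other. Hspa8 was 77.5 times as abundant as Hspa1b per kilobase of coding sequence in Thy1.1-negative cells and 114 times in Thy1.1-positive cells.

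The promoter windows of these genes are shown because both hold a match to paired heat shock half-sites and they hardly differ. Each covers 250 bases before and 50 bases after the annotated start, from RefSeq on GRCm38.p6, and capitals mark pairs of heat shock half-sites (GAANNTTC or TTCNNGAA, each its own reverse complement). Hspa1a lies at chr17:34972107-34972406 and Hspa1b at chr17:34959189-34959488, both on the minus strand, and the windows are identical at 296 of 300 positions.
Hspa1a: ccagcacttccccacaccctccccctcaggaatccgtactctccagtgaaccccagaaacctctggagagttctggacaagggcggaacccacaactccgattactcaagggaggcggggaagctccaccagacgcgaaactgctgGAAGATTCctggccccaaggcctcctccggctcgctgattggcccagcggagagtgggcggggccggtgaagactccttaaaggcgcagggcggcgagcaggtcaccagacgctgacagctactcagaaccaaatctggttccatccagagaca
Hspa1b: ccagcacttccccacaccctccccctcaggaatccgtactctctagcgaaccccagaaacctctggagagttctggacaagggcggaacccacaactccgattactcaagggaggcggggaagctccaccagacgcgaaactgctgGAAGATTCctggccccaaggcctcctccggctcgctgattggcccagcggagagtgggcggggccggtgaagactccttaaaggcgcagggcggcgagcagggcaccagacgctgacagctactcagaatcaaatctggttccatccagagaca
In both windows the single capital block lies 104 to 97 bases before the start. Hsph1, an HSP110 gene that heat shock factor 1 also induces, has 3 such pairs in the printed window at chr5:149636266-149636565 (minus strand), of which 2 overlap in an array of 3 half-sites, and its ratio was 1.09 (1.02 to 1.17), or 0.992 to 1.199 with the fewest reads its values allow.
Hsph1: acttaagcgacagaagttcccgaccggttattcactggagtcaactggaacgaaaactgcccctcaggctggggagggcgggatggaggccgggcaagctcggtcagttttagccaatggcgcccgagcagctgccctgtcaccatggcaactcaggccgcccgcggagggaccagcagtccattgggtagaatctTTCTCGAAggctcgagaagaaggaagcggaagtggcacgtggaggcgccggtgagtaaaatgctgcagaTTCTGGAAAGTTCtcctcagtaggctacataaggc

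Other HSP70 genes were low or differed little. Hspa13, a microsomal HSP70 relative, was at 16.3 FPKM in Thy1.1-negative cells, against 13.0 FPKM in Thy1.1-positive cells, a ratio of 1.25 (1.13 to 1.38). Hspa2, best known from the testis, was at 7.49 FPKM in Thy1.1-negative and 6.08 FPKM in Thy1.1-positive cells. Hspa12a, Hspa12b and Hspa1l stayed at or below 0.827 FPKM in both libraries.

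The HSP90 genes differed in level by far more than between populations. Hsp90ab1 was the most abundant member, at 2490.3 FPKM in Thy1.1-negative cells and 2688 FPKM in Thy1.1-positive cells, a ratio of 0.926 (0.914 to 0.939). Hsp90b1, the HSP90 of the ER, was at 136 FPKM in Thy1.1-negative and 129 FPKM in Thy1.1-positive cells, a ratio of 1.06 (1.01 to 1.11). Hsp90aa1, the inducible cytosolic form, was at 25.7 FPKM in Thy1.1-negative and 26.3 FPKM in Thy1.1-positive cells, with an interval (0.869 to 1.099) that included 1. Differences below 0 for Hsp90ab1 and Hsp90aa1 turned above 0 with equal upper quartiles. Per kilobase of coding sequence Hsp90ab1 exceeded Hsp90aa1 72.9-fold in Thy1.1-negative and 76.9-fold in Thy1.1-positive cells. That gap is uncertain, because 47.5% of the 50-base words of Hsp90aa1 also occur in other annotated transcripts, led by the gene models Gm12346 and Gm5844, against 3.44% for Hsp90ab1, and the labels do not say how shared reads were counted.

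Partners of HSP90 had differences on both sides of 0, and a single one passed 2-fold. Of 26 cochaperones, 25 were measured, 13 above 0 and 12 below, with a median difference of 0.02 beside 0.04 for protein-coding genes. With equal upper quartiles 24 of the 25 lay above 0. Fkbp5, an immunophilin that binds HSP90 in steroid receptor complexes and is induced by glucocorticoids, was at 48.4 FPKM in Thy1.1-negative cells and 22.6 FPKM in Thy1.1-positive cells. Its ratio of 2.14 (1.96 to 2.34) passed 2-fold, as did 1.78% of protein-coding genes. Tomm34, a cochaperone at the outer mitochondrial membrane, had the lowest difference, at 69.8 FPKM in Thy1.1-negative and 89.4 FPKM in Thy1.1-positive cells and a ratio of 0.781 (0.743 to 0.822). Stip1, the adaptor between HSP70 and HSP90, was at 54.4 FPKM in both.

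The mitochondrial chaperonin genes Hspd1 and Hspe1 are read from a shared, bidirectional promoter and showed differences of opposite sign. Hspd1, the ring subunit, was at 109.5 FPKM in Thy1.1-negative cells and 103.5 FPKM in Thy1.1-positive cells, a ratio of 1.06 (1.001 to 1.12). Hspe1, the lid, was at 88.9 FPKM in Thy1.1-negative and 104 FPKM in Thy1.1-positive cells, a ratio of 0.853 (0.795 to 0.916). With equal upper quartiles Hspe1 turned above 0, so both were then positive. The RefSeq window of Hspe1 has 285 bases in common with the Hspd1 window at chr1:55087883-55088182, on the opposite strand. It has 4 in common with the other Hspd1 window, at chr1:55088194-55088493, which holds no heat shock pair. The Hspe1 window at chr1:55087898-55088197 (plus strand) is shown for its array of half-sites, which the first of these Hspd1 windows also holds.
Hspe1: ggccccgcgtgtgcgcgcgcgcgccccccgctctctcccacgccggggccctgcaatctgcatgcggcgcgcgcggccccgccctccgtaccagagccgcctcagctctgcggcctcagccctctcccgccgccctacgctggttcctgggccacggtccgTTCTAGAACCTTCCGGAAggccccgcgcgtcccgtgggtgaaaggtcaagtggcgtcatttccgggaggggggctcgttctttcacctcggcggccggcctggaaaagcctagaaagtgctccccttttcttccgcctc
Annotated copies limit both values. Of the 50-base words, 42.1% of those of Hspd1 and 22.8% of those of Hspe1 occur in transcripts of other genes, and the genes overlap each other by 112 exonic bases.

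The CCT subunits had the smallest spread of any class. All 8 measured subunit genes lay between -0.07 and 0.09, with a median of -0.02 and an SD of 0.06, and the 10 CCT genes together held 0.149% of counted reads in Thy1.1-negative and 0.148% in Thy1.1-positive cells. Cct5, at 203 FPKM in Thy1.1-negative and 190.3 FPKM in Thy1.1-positive cells, had the highest ratio, 1.07 (1.02 to 1.12), but with the fewest reads its values allow the interval was 0.998 to 1.14. Cct2 was at 139.9 FPKM in Thy1.1-negative and 133 FPKM in Thy1.1-positive cells and Cct8 at 211 FPKM in Thy1.1-negative and 205 FPKM in Thy1.1-positive cells, both slightly above 0. Tcp1, the subunit that gave the complex its older name, was level at 113.8 FPKM in Thy1.1-negative and 114.1 FPKM in Thy1.1-positive cells. Cct4, Cct7 and Cct6a were at 214, 73.7 and 59.9 FPKM in Thy1.1-negative cells, against 219.8, 76.1 and 62.3 FPKM in Thy1.1-positive cells. Cct3 had the lowest ratio, 0.952 (0.906 to 0.999), at 104 FPKM in Thy1.1-negative and 109 FPKM in Thy1.1-positive cells. The 5 subunits below 0 all turned above 0 with equal upper quartiles, where the class median was 0.24. Cct6b and Cct8l1, testis-type relatives, had at most 9 reads in a library.

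How far apart the subunits lay in level depended on the gene length used for normalisation. The coding lengths of the subunits are nearly alike, but the lengths implied by the deposited values ran from 978 bases for Cct8 to 2452 bases for Cct7. As deposited, the 7 subunits with an annotated coding length spanned 2.91-fold in Thy1.1-negative cells, with a coefficient of variation of 38.2%, and 2.89-fold in Thy1.1-positive cells, with 36.8%. Rescaled to reads per kilobase of coding sequence, they spanned 2.06-fold with a coefficient of variation of 22.5% in Thy1.1-negative cells, and 1.96-fold with 20.3% in Thy1.1-positive cells. Cct7, the lowest of the 7 as deposited, then stood at 111 in Thy1.1-negative and 114 in Thy1.1-positive cells, near Cct5 at 124 in Thy1.1-negative and 116 in Thy1.1-positive cells. Tcp1 became the lowest at 83.0 in Thy1.1-negative and 83.3 in Thy1.1-positive cells, and 850 of its exonic bases overlap other genes. Cct2 became the highest at 171 in Thy1.1-negative and 163 in Thy1.1-positive cells.

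**Figure D3:**
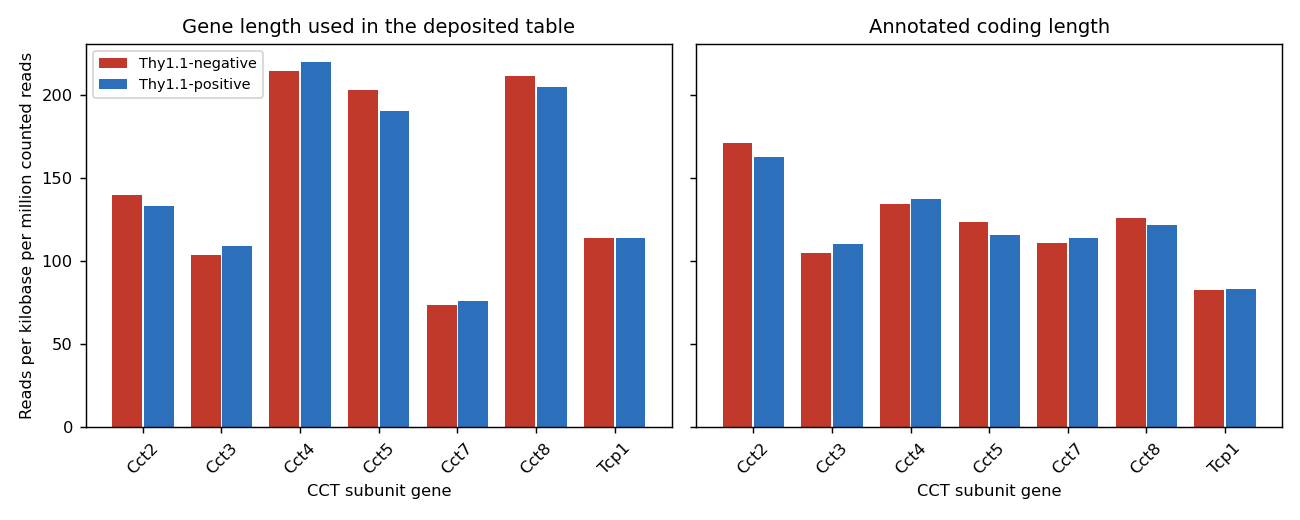
Levels of 7 CCT subunit genes in Thy1.1-negative (left bar) and Thy1.1-positive cells (right bar), in reads per kilobase scaled to library size as FPKM is, with the gene length used in the deposited table (left panel) and with the annotated coding length (right panel). The subunits lie closer together on the coding length, and the paired bars differ little on either.

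Small heat shock proteins, which keep misfolded proteins from aggregating without using ATP, were scarce. Of 8 genes so named, 4 reached a mean of 1 FPKM, and none exceeded 6.01 FPKM in either library. Hspb1, the best known of them, was at 2.41 FPKM from 41 reads in Thy1.1-negative cells, against 3.75 FPKM from 64 reads in Thy1.1-positive cells, a ratio of 0.643 (0.423 to 0.966). Annotated pseudogenes, led by Hsp25-ps1, hold 50.1% of its 50-base words. Hspb9 was at 2.58 FPKM in Thy1.1-negative and 3.04 FPKM in Thy1.1-positive cells and Hspb6 at 1.47 FPKM in Thy1.1-negative and 1.38 FPKM in Thy1.1-positive cells, and both intervals included 1. Hspb11, a part of the intraflagellar transport machinery despite its name, was at 5.59 FPKM in Thy1.1-negative and 6.01 FPKM in Thy1.1-positive cells. Hspb3 was listed at 0 in both libraries.

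Hspb1 was lower in Thy1.1-negative cells, the opposite sign to Hspa1a and Hspa1b. Its window at chr5:135887669-135887968 (plus strand), printed with the same marking, holds 2 pairs of half-sites.
Hspb1: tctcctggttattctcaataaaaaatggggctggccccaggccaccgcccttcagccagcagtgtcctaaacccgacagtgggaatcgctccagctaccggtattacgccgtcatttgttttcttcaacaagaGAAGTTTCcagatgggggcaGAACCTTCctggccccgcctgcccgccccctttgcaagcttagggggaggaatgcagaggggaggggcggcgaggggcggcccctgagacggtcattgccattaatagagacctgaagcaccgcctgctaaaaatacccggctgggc
Hspbp1, an exchange factor that strips nucleotide from HSP70, was at 18.3 FPKM in Thy1.1-negative cells and 24.4 FPKM in Thy1.1-positive cells, a ratio of 0.7496 (0.667 to 0.842). Hspbap1, named for binding Hspb1, was at 3.13 FPKM in Thy1.1-negative and 3.34 FPKM in Thy1.1-positive cells.

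DnaJA genes encode the cytosolic and mitochondrial relatives of the bacterial DnaJ protein. Dnaja1 had the highest FPKM as deposited of the DnaJ genes, at 266 in Thy1.1-negative cells and 301 in Thy1.1-positive cells, a ratio of 0.882 (0.857 to 0.908). Dnaja4 was at 11.9 FPKM in Thy1.1-negative and 13.8 FPKM in Thy1.1-positive cells, the lowest difference of the class at -0.19. Dnaja2 was at 62.2 FPKM in Thy1.1-negative and 60.9 FPKM in Thy1.1-positive cells and Dnaja3, the mitochondrial member, at 11.4 FPKM in Thy1.1-negative and 12.04 FPKM in Thy1.1-positive cells, both with intervals that included 1. All 4 were above 0 with equal upper quartiles.

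DnaJB genes went both ways. Dnajb1, the main partner of stress-inducible HSP70, was nearly level at 64.2 FPKM in Thy1.1-negative and 60.6 FPKM in Thy1.1-positive cells, a ratio of 1.06 (1.003 to 1.12). Dnajb6, which prevents the aggregation of polyglutamine proteins, was at 222 FPKM in Thy1.1-negative and 224 FPKM in Thy1.1-positive cells. Dnajb4, a heat-inducible relative of Dnajb1, was at 27.8 FPKM in Thy1.1-negative and 40.9 FPKM in Thy1.1-positive cells, a ratio of 0.681 (0.625 to 0.743). Its difference of -0.54 was the lowest of all members, but Hspb1 had the lower ratio and, with a pseudocount of 0.1, the lower difference, -0.62 beside -0.55 for Dnajb4. Dnajb2, which binds ubiquitylated clients, was at 27.0 FPKM in Thy1.1-negative and 34.2 FPKM in Thy1.1-positive cells, a ratio of 0.788 (0.708 to 0.877). At the other end was Dnajb13, an axonemal protein, at 11.6 FPKM in Thy1.1-negative and 9.15 FPKM in Thy1.1-positive cells, a ratio of 1.27 (1.05 to 1.55), with 305 exonic bases that overlap Ucp2. The class had 5 members above 0 and 5 below, with a median of 0.04. The Dnajb4 window at chr3:152193796-152194095 (minus strand) holds 1 pair of half-sites close to the start, marked as before, and the window of its second annotated start holds none.
Dnajb4: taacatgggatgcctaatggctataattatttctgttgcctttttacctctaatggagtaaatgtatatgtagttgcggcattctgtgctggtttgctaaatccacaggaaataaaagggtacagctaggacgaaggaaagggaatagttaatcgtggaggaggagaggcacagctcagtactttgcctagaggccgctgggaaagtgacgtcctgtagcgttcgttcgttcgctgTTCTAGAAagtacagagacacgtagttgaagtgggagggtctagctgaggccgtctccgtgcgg

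The DnaJC class, which groups proteins that share little beyond the J domain, held the largest difference of all members on the log2(FPKM + 1) scale, though Hspa1a had the larger ratio and, with a pseudocount of 0.1, the larger difference, 0.92 beside 0.73 for Dnajc15. Dnajc15, also called MCJ, an inner mitochondrial membrane protein that restrains respiratory complex I, was at 20.98 FPKM in Thy1.1-negative cells and 12.61 FPKM in Thy1.1-positive cells. The ratio was 1.66 (1.498 to 1.85) with the reads recovered for the annotated length, 945 in Thy1.1-negative and 570 in Thy1.1-positive cells. The values themselves require at least 63 and 38 reads in these populations, which give an interval of 1.095 to 2.56. No 50-base word of the gene occurs in another annotated transcript. Its difference was 0.69, or 0.93 with equal upper quartiles. Its promoter window at chr14:77874868-77875167 (minus strand) is printed beside the windows with pairs, and it holds no heat shock pair.
Dnajc15: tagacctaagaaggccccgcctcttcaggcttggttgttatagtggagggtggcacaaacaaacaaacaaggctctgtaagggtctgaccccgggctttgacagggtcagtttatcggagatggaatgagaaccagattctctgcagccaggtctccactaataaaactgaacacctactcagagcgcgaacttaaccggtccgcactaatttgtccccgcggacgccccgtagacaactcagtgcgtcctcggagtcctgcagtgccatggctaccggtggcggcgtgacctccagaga
The mitochondrial import factor Dnajc19 was at 12.6 FPKM in Thy1.1-negative and 11.7 FPKM in Thy1.1-positive cells and Dnajc30 at 2.76 FPKM in Thy1.1-negative and 2.10 FPKM in Thy1.1-positive cells, with intervals that included 1. Dnajc11, which helps to shape mitochondrial cristae, was at 26.6 FPKM in Thy1.1-negative and 29.9 FPKM in Thy1.1-positive cells, a ratio of 0.889 (0.810 to 0.976), with an upper bound of 1.01 for the fewest reads its values allow. With the fewest reads the intervals of Dnaja4 and Hspa2 also included 1.

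Apart from ER members described below, most other DnaJC genes were close to level. The splicing factor Dnajc8 had the highest FPKM of the class, at 183 in Thy1.1-negative and 179 in Thy1.1-positive cells. Per kilobase of coding sequence Dnajc5 exceeded it, at 425 in Thy1.1-negative and 413 in Thy1.1-positive cells, against 199 and 195 for Dnajc8. Dnajc7, which links HSP70 to HSP90, was at 157 FPKM in Thy1.1-negative and 135 FPKM in Thy1.1-positive cells, a ratio of 1.16 (1.099 to 1.23). Dnajc5, a vesicle protein, was at 92.9 FPKM in Thy1.1-negative and 90.4 FPKM in Thy1.1-positive cells, Dnajc13, of endosomes, at 65.5 FPKM in Thy1.1-negative and 61.8 FPKM in Thy1.1-positive cells and Dnajc2, of ribosomes, at 36.7 FPKM in Thy1.1-negative and 36.1 FPKM in Thy1.1-positive cells. Dnajc9, a histone chaperone, stood at 47.7 FPKM in Thy1.1-negative and 45.3 FPKM in Thy1.1-positive cells, with an interval (0.977 to 1.13) that included 1. Cell cycle genes in the same libraries had differences from 0.05 for Mcm2 to 3.03 for Stmn1. Dnajc12 had the lowest difference of the class at -0.39, with 2.22 FPKM in Thy1.1-negative cells and 3.21 FPKM in Thy1.1-positive cells, a ratio of 0.691 (0.525 to 0.907), but with the fewest reads its values allow the interval reached 1.12. The class had 18 of 24 measured members above 0 and a median of 0.08. Apart from 5 ER members described singly below, the other 13 DnaJB and DnaJC members were Dnajb5, Dnajb12, Dnajb14, Dnajc4, Dnajc6, Dnajc14, Dnajc16, Dnajc17, Dnajc18, Dnajc21, Dnajc24, Dnajc25 and Dnajc27. Of these 13, Dnajc16 and Dnajc25 are also on the ER list below, and Dnajb12, Dnajb14, Dnajc14 and Dnajc18 are linked to the ER as well. The differences of the 13 ran from -0.17 for Dnajc27, a Rab-like GTPase with a J domain, to 0.21 for Dnajc25. The highest of the 13 in FPKM was Dnajc21, a ribosome biogenesis factor, at 29.99 FPKM in Thy1.1-negative and 28.0 FPKM in Thy1.1-positive cells. Exons of 27 of the 67 measured members overlap another gene, and since the kit does not mark strand their reads are uncertain. Among these 27 the overlap is longest for Dnaja4 (1581 bases), Dnajc14 (1307 bases), Dnaja1 (931 bases) and Tcp1 (850 bases).

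**Figure D4:**
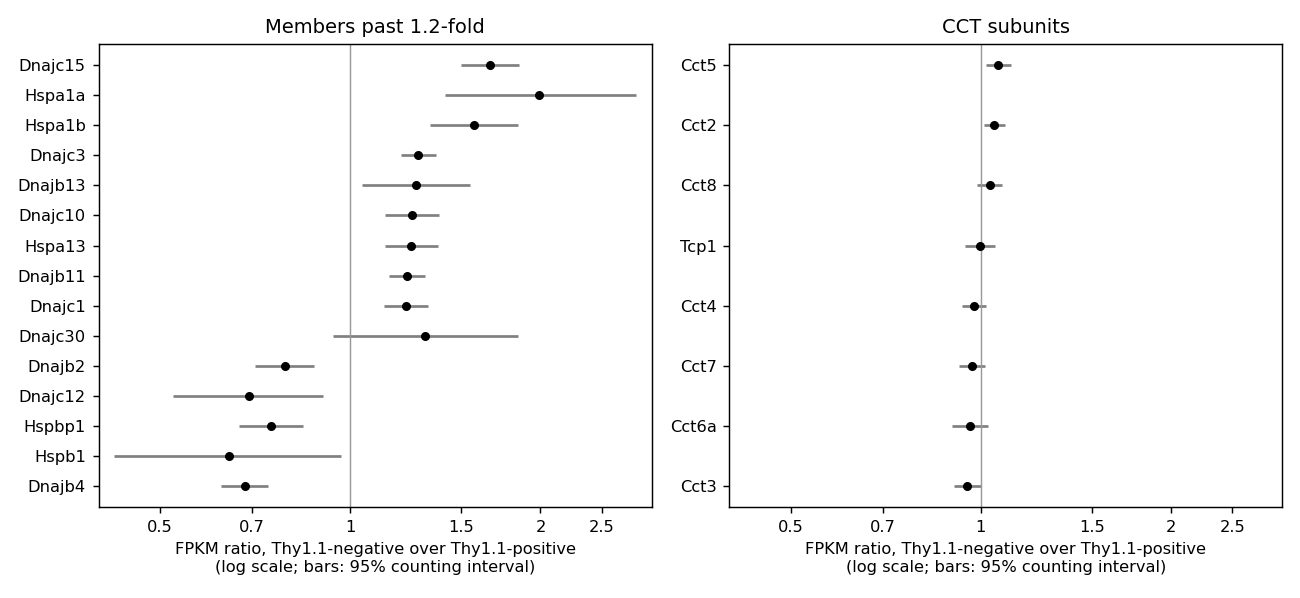
FPKM ratio of Thy1.1-negative over Thy1.1-positive cells on a log axis, with 95% counting intervals, for the 15 members past 1.2-fold on the log2(FPKM + 1) scale (left) and the 8 measured CCT subunits (right). The left panel spans 0.643 to 1.99 and the CCT subunits 0.952 to 1.07.

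Among the 12 ER genes listed, several J-domain cofactors were higher in Thy1.1-negative cells while the abundant Hspa5 and Hsp90b1 were nearly level. Of these 12, with Hyou1 and Sec63 from outside the member rule, 10 lay above 0, with a median of 0.17 beside 0.04 for protein-coding genes. At 1.2-fold, 5 of the 12 were higher and none was lower, beside 19.5% and 10.6% of protein-coding genes. The list does not cover all ER genes, and it was chosen with earlier results of these data known. The 1.2-fold count was added after seeing the data. The counts therefore describe the chosen genes only. The list leaves out the ER-linked Dnajb12 at 0.11, Dnajb14 at -0.10, Dnajc14 at -0.06, Dnajc18 at -0.01 and Sil1 at -0.06. Dnajc3, which restrains the ER stress kinase PERK, was at 23.7 FPKM in Thy1.1-negative cells and 18.5 FPKM in Thy1.1-positive cells, a ratio of 1.28 (1.204 to 1.36). Dnajc10, an ER reductase, was at 35.0 FPKM in Thy1.1-negative and 27.9 FPKM in Thy1.1-positive cells, Dnajb11, a BiP cofactor, at 75.7 FPKM in Thy1.1-negative and 61.6 FPKM in Thy1.1-positive cells and Dnajc1, a membrane partner of BiP, at 38.1 FPKM in Thy1.1-negative and 31.1 FPKM in Thy1.1-positive cells. Hspa13 was the fifth. Hspa5 and Hsp90b1, the highest of the list in FPKM, had ratios of 0.970 and 1.06. Hyou1, an exchange factor for BiP, had the lowest ratio of the list at 0.924 (0.872 to 0.979). Dnajb9, which feeds back on the stress sensor IRE1, was at 67.9 FPKM in Thy1.1-negative and 62.2 FPKM in Thy1.1-positive cells.

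The windows of Hspa5 and Dnajc3, an abundant and a less abundant ER member, are printed with the ER stress response element in capitals, CCAAT followed after 9 bases by CCACG. The element, searched on both strands, was found in the windows of Hspa5, Dnajc3 and Hsp90b1 among members, and in 0.119% of 32851 RefSeq windows.
Hspa5, chr2:34771840-34772139, plus strand: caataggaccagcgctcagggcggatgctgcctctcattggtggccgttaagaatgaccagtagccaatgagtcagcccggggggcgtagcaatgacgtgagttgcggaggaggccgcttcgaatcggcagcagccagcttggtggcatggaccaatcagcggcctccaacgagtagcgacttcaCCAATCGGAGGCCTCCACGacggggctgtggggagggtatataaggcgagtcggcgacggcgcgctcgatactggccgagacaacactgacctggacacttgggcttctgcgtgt
Dnajc3, chr14:118937682-118937981, plus strand: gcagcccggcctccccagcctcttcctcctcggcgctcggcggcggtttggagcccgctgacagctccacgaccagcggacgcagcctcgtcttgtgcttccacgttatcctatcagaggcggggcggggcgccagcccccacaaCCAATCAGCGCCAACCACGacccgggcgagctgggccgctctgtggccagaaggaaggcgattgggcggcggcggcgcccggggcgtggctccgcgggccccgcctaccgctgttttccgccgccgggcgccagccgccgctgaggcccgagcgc
The elements lie 65 to 47 and 105 to 87 bases before the annotated starts of Hspa5 and Dnajc3.

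As deposited, members whose promoter windows hold heat shock pairs had differences on both sides of 0. RefSeq windows were matched for 68 of the 83 members, with 87 windows in all, and no window was used for 15, among them Hspa8, Hsp90aa1, Hsp90ab1, Hspa9, Hspa13 and Cct4. A pair in either arrangement was found in 25.3% of these windows and in 15.1% of all 32851 windows, and an array of 3 half-sites (GAA, TTC and GAA, each 2 bases apart, on either strand, which overlaps the pairs) in 6.90% and 0.603%. The 6.90% is 6 windows of Dnajb6, Hspd1, Hspe1 and Hsph1, and only 3 separate sites stand behind them, since Hspd1 and Hspe1 share a site and the other two genes each have it in 2 overlapping windows. Of the 16 measured members with a pair, 8 lay above 0 and 8 below, with a median of 0.02 and a range of -0.54 to 0.56. The 8 above include Hspa1a, which passed the filter through its Thy1.1-negative value alone. Of the 8 below, Cct6a, Dnaja1, Dnaja4, Dnajb6, Dnajc27 and Hspe1 turned above 0 with equal upper quartiles. Only Dnajb4 and Hspb1 stayed below. The 39 measured members whose windows held none had a median of 0.07. A match is a description of letters and was not taken as a binding site.

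**Figure D5:**
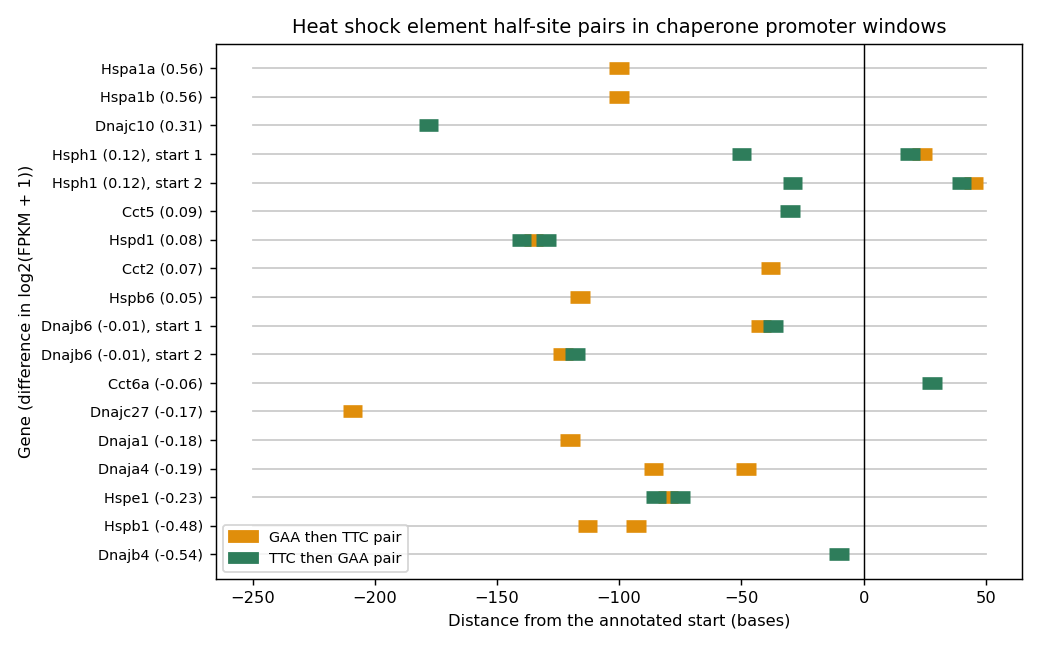
Positions of heat shock half-site pairs, in bases from the annotated start, in the windows of the 16 measured members that hold any, ordered by their difference in log2(FPKM + 1), Thy1.1-negative minus Thy1.1-positive, given in brackets. Genes at the top (Hspa1a, 0.56) and at the bottom (Dnajb4, -0.54) both hold pairs upstream of the start.

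The heat shock factors and the genes they induce were described as lists. Hsf1 was at 44.7 FPKM in Thy1.1-negative cells and 53.3 FPKM in Thy1.1-positive cells, a ratio of 0.839 (0.786 to 0.896). Hsf2, a related factor, was at 8.55 FPKM in Thy1.1-negative and 10.6 FPKM in Thy1.1-positive cells, a ratio of 0.808 (0.708 to 0.922), and Hsbp1, which binds the factors, was at 39.1 FPKM in Thy1.1-negative and 34.3 FPKM in Thy1.1-positive cells. Of the 4 measured genes of this list, 1 lay above 0 as deposited and 3 with equal upper quartiles. Of 20 genes of the core that Hsf1 induces, 18 were measured, 11 above 0, Hspa1a among them, and 7 below, with a median of 0.08. With equal upper quartiles 16 of the 18 lay above 0. As deposited, the extremes of this core were Hspa1a and Dnajb4. Bag3, a stress-induced partner of HSP70, was at 21.1 FPKM in Thy1.1-negative and 18.7 FPKM in Thy1.1-positive cells. Immediate early genes, which handling of cells can also induce, had 3 of 11 above 0 and a median of -0.17, led by Jund at 143 FPKM in Thy1.1-negative and 119 FPKM in Thy1.1-positive cells and ending with Nr4a1 at 398 FPKM in Thy1.1-negative and 592 FPKM in Thy1.1-positive cells. With equal upper quartiles 9 of these 11 genes lay above 0, with a median of 0.09. Their part in the chaperone values was not tested.

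As deposited, the other partner lists held differences on both sides of 0. Of 14 exchange factors and BAG proteins, 8 lay above 0 and 6 below, with a median of 0.05. Bag1, which releases HSP70 clients at the proteasome, was highest at 67.9 FPKM in Thy1.1-negative and 56.0 FPKM in Thy1.1-positive cells, a ratio of 1.21 (1.13 to 1.303), and Hspbp1 was lowest. Of 8 measured genes of prefoldin and phosducin-like proteins, which deliver clients to CCT or modulate it, 5 lay above 0 with a median of 0.07. Pdcl3 was highest, at 14.5 FPKM in Thy1.1-negative and 10.8 FPKM in Thy1.1-positive cells, a ratio of 1.34 (1.17 to 1.55), and the prefoldin subunit Pfdn2 lowest, at 39.5 FPKM in Thy1.1-negative and 43.9 FPKM in Thy1.1-positive cells. Of 18 mitochondrial chaperones, import factors and proteases, 9 lay above 0 and 9 below. Dnajc15 was the highest of these and the protease Htra2 the lowest, at 11.7 FPKM in Thy1.1-negative and 14.3 FPKM in Thy1.1-positive cells. The signs depended on the scale. With equal upper quartiles, 13 of the 14 exchange factors and BAG proteins lay above 0. So did all 8 prefoldin and phosducin-like genes and 17 of the 18 mitochondrial ones.

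The other 16 members were below the filter, with means of 0 to 0.956 FPKM. The nearest to it were Dnajc28 at 1.09 FPKM in Thy1.1-negative and 0.827 FPKM in Thy1.1-positive cells, just below, and Hspa1a at a mean of 1.41 FPKM, just above. Hspa1a passed through its Thy1.1-negative value, since it was at 0.942 FPKM in Thy1.1-positive cells. Hspa12a, Hspa12b, Hspa1l, Hspb3, Cct6b and Cct8l1 were given with their classes. The rest were Hspb2, Hspb7, Hspb8, Dnajb3, Dnajb7, Dnajb8, Dnajc5b, Dnajc5g and Dnajc22, each with 10 reads or fewer in either library.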

How the data were processed

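The authors deposited FPKM values per Ensembl gene, 1 column for each library. In the column names, N was taken for Thy1.1-negative and P for Thy1.1-positive. Bowtie2 2.2.3, TopHat2 2.0.12 and HTSeq 0.6.1 with the build mm9 are listed in the submitters' processing notes, without settings, annotation or treatment of shared reads. Libraries were made from 3 µg of total RNA with the NEBNext Ultra RNA kit, per the labels' protocols; it does not mark strand, so reads of overlapping genes on either strand cannot be separated. Symbols, types, lengths and exon overlaps came from GENCODE M21, and 96.8% of 41592 IDs had a symbol. That annotation and the RefSeq windows are on GRCm38, not mm9, so the windows locate sequences and no measured value.

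FPKM is normalised, and a count model was therefore not fitted. Whole reads were recovered from the ratio of the deposited values of each gene, within a tolerance of 2e-11, with the library totals taken from 714 genes of 1 transcript. Each gene's reads are the multiple that gives a whole-number length nearest to its mean annotated transcript length. That length was within 1 base for 43 of the 82 members with reads. Exact Clopper-Pearson intervals at 95% follow from these reads, and PCR copies are not independent molecules. Summed over all genes, recovered reads came to 100.7% of the library total in Thy1.1-negative and 100.6% in Thy1.1-positive cells, so the reads of some genes are too many. The procedure was tested on simulated data, which cannot show whether the annotated lengths are those behind the deposited values.

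A gene was called at a 2-fold difference of log2(FPKM + 1) when its FPKM averaged 1 or more; the 1.2-fold count was added after seeing the data. The alternatives tried were other pseudocounts (0.1, 5), another filter (none, or 5 FPKM on average), other rules of size (1.5-fold, 4-fold) and 4 rescalings. Any member could be named; named in every case were the CCT subunits, the main HSP70 and HSP90 genes and the extremes of each class and list. Words of 50 bases were compared across GENCODE M21 transcripts, annotated pseudogenes included. Members and lists were chosen with earlier results of these data known. Work used Python 3.11.15, pandas 2.3.3 and scipy 1.17.1.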

Additional observations from a re-analysis of the deposited data

How the results depend on the processing

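No member passed 2-fold in either direction with a pseudocount of 0.1 or 5, without the filter, or at a mean FPKM of at least 5. None passed at 4-fold, and none passed 2-fold under the 4 rescalings, which used a pseudocount of 1 only. Hspa1a had an FPKM ratio of 1.99 as deposited. Whether it would stay below 2-fold when rescaled with a smaller pseudocount was not tested. At 1.5-fold the count of higher members was 1, and at 1.2-fold, a rule added after seeing the data, 10 were higher and 5 lower. With equal upper quartiles the median difference was 0.28 over the members and 0.24 over the CCT subunits, against 0.04 and -0.02 as deposited. Both medians otherwise moved by less than 0.12, the median counting error of a member, also without Cct6a, an alternative added after seeing the data. Of single members, 49 of 67 moved beyond their counting error with equal upper quartiles, where 24 turned from below 0 to above. With the median gene centred, Dnaja2, Dnajc2, Dnajc4 and Hspa4 turned below 0, and without the 100 highest genes Dnajc8 did too. No paired analysis was possible because each population has 1 library. Depth limits the low members most: Hspa1a rests on 103 reads in Thy1.1-negative and 52 in Thy1.1-positive cells, and Hspb1 on 41 in Thy1.1-negative and 64 in Thy1.1-positive cells.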
